A study of Mus musculus with 6 samples.

Results

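RNA polymerase III makes short RNAs that do not code for protein, and 8 of its genes were described in satellite cells, the stem cells of skeletal muscle, with and without the histone chaperone gene Hira. They were the gene of 7SK (Rn7sk), the RNA of RNase P (Rpph1), the RNA of RNase MRP (Rmrp), 3 genes annotated as copies of the RNase P RNA (Rprl1, Rprl2, Rprl3) and the 2 Y RNA genes (Rny1, Rny3), out of 55536 genes in the count files. The genes were listed by symbol in the GENCODE M21 annotation, and the group was chosen by a measured value: the lower counts of Rn7sk and other short RNAs in Hira-deficient cells were known when it was drawn up. Their difference between the groups is therefore a description, and nothing is read from how many of them passed a test. Rmrp and Rprl1 each have 2 gene identifiers, so the 8 genes have 10 entries.

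The cells came from adult male mice whose Tibialis anterior muscle was injured with barium chloride. Both groups carried Pax7CreErt2, a Cre recombinase made under the Pax7 gene and switched on by tamoxifen, which was given in the diet. The 3 control samples were Pax7CreErt2;Hira fl/+, with a single floxed allele (the sample labels write WT, in the strain C57BL/6J), and the 3 cKO samples were Pax7CreErt2;Hira fl/fl. Cells positive for CD34 and ITGA7 and negative for CD45, TER119 and SCA1 were sorted at 5 days after injury and kept in culture for 48 h, libraries were made from 400 ng of total RNA depleted of ribosomal RNA, and reads of 75 bases were sequenced from 1 end. The samples are described as independent RNA samples and no source states that each came from its own mouse, so p-values measure the spread between these samples, which may be technical. The reads counted on genes numbered 47944477 to 63323577 per sample. Counts of Hira itself were 375, 348 and 341 in the control samples and 161, 293 and 272 in the cKO samples, a log2 fold change of -0.43 (SE 0.12), with no overlap between the groups. These counts cover all exons of the gene, deleted or not.

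7SK RNA holds the kinase P-TEFb (Cdk9 with cyclin T) in an inactive complex with the proteins Hexim1, Larp7 and Mepce, and so limits the release of paused RNA polymerase II. RNase P RNA is the catalytic RNA that cuts the leader from precursor tRNAs, and RNase MRP RNA is its relative that acts on precursor ribosomal RNA. Y RNAs bind the Ro60 protein and have been linked to RNA quality control and to the start of DNA replication. The genes of these RNAs have promoters that lie outside the transcribed sequence.

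The sequences below show parts of these genes and how alike some of them are. All RNA sequences are the GENCODE M21 transcripts in DNA letters, on mm10. The first is the 5′ part of Rn7sk (ENSMUSG00000065037, chr9:78175303-78175633, minus strand, 331 bases), bases 1 to 120, with each GATC in capitals at bases 13 to 16, 42 to 45 and 64 to 67; GATC repeats of the 5′ stem of 7SK belong to the part known to bind Hexim proteins. The Y RNA genes are shown whole, Rny1 (ENSMUSG00000065701, chr6:47788069-47788180, minus strand, 112 bases) and Rny3 (ENSMUSG00000064945, chr6:47781624-47781725, plus strand, 102 bases), with the runs of 8 or more bases that each shares with the other in capitals.
Rn7sk bases 1 to 120: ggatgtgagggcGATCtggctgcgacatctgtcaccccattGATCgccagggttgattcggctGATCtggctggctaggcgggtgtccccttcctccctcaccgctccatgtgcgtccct
Rny1: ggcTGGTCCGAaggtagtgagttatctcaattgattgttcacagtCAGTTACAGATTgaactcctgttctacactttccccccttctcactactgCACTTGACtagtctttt
Rny3: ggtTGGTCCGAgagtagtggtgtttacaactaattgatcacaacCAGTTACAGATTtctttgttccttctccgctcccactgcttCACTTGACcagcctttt
The shared runs of the Y RNAs are 8, 12 and 8 bases long. Over 102 aligned bases the Y RNAs were identical at 78.4%, and no 75-base window was common to them, so a whole read can be told apart between them.

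The RNase P RNA and its annotated copies are much closer to each other. Bases 1 to 160 are shown for Rpph1 (ENSMUSG00000092837, chr14:50807449-50807767, minus strand, 319 bases), Rprl2 (ENSMUSG00000087775, chr3:22251374-22251663, plus strand, 290 bases) and Rprl3 (ENSMUSG00000088025, chr8:3803069-3803358, minus strand, 290 bases). Capitals in Rpph1 are bases outside the exons of other genes on its strand, and capitals in the copies are bases that differ from Rpph1 in the alignment.
Rpph1 bases 1 to 160: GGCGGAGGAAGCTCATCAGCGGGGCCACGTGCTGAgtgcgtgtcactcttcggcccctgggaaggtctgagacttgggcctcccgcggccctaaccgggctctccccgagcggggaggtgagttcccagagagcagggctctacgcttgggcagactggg
Rprl2 bases 1 to 160: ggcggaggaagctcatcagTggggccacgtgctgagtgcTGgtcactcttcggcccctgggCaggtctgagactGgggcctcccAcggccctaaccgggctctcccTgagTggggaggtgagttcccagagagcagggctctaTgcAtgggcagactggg
Rprl3 bases 1 to 160: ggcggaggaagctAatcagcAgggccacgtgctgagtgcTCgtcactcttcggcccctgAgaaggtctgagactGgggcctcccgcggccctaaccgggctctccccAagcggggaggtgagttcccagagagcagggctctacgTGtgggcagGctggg
Each copy differs from Rpph1 at 10 of these bases. Over the whole alignment Rpph1 was 83.4% identical to Rprl1, 87.8% to Rprl2 and 88.2% to Rprl3, and 58.6% identical to Rmrp. No 75-base window of Rprl2 or Rprl3 occurs in another annotated transcript.

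The bases before Rpph1 are shown because they hold a known element of such promoters, the octamer that the POU protein Oct-1 (Pou2f1) binds. They are the 198 bases upstream of the first base of Rpph1 (chr14:50807768-50807965, minus strand), read from the RefSeq promoter window of the divergent gene Parp2 on GRCm38.p6, with the octamer ATGCAAAT in capitals.
Rpph1 upstream: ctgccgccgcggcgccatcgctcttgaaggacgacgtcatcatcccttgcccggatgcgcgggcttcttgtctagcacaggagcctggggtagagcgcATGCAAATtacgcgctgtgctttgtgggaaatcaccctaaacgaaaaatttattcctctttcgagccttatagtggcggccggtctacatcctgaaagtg
The octamer ends 93 bases before the gene. The letters TATAAA were searched too and did not occur in these bases. In 220 bases before Rn7sk, which begin 31 bases upstream of it, TATAAA occurred and the octamer did not. Before Rmrp both occurred, as reverse complements. These windows also came from divergent neighbours and are not printed. Searched on both strands, ATGCAAAT occurs in 1.74% of the 32851 RefSeq promoter windows of the table, which are longer and also hold bases after a start. A match of letters is a description and not a measured binding site.

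The annotation around these genes limits what their counts can show. In these files a read that overlaps exons of more than 1 gene appears not to have been counted, whatever its strand. All 765 genes with no exonic base of their own on their strand had 0 counts in all 6 samples, as did all 460 genes covered completely by exons of the opposite strand only, against 30.5% of the 43640 genes that share no exonic base. Rmrp is annotated as a ribozyme (ENSMUSG00000088088, chr4:43492788-43493058, minus strand) inside a lincRNA of the same name (ENSMUSG00000115420), and also overlaps Ccdc107 on the opposite strand. None of its 197 windows of 75 bases (207 in the lincRNA) was clear of another gene. Rprl1 has a ribozyme entry (ENSMUSG00000088675, chr6:69326844-69327170, minus strand) and a lincRNA entry (ENSMUSG00000106222), and 19 of the 253 windows of the ribozyme and 0 of the 164 windows of the lincRNA were clear.

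For Rpph1, an exon of Ccnb1ip1 on the same strand covers 233 of 319 bases, and 0 of its 245 windows were clear. It had counts all the same, 153 in control and 38 in cKO when summed, while the Rprl1 ribozyme entry had none, so clear windows alone do not tell which entries had counts. Since reads may be missing from Rpph1, its level is not compared with that of other genes. Its counts and fold change below describe only the reads that were counted. Rn7sk, Rprl2, Rprl3, Rny1 and Rny3 overlap no other gene, and all their windows were clear (257, 216, 216, 38 and 28).

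**Figure D1:**
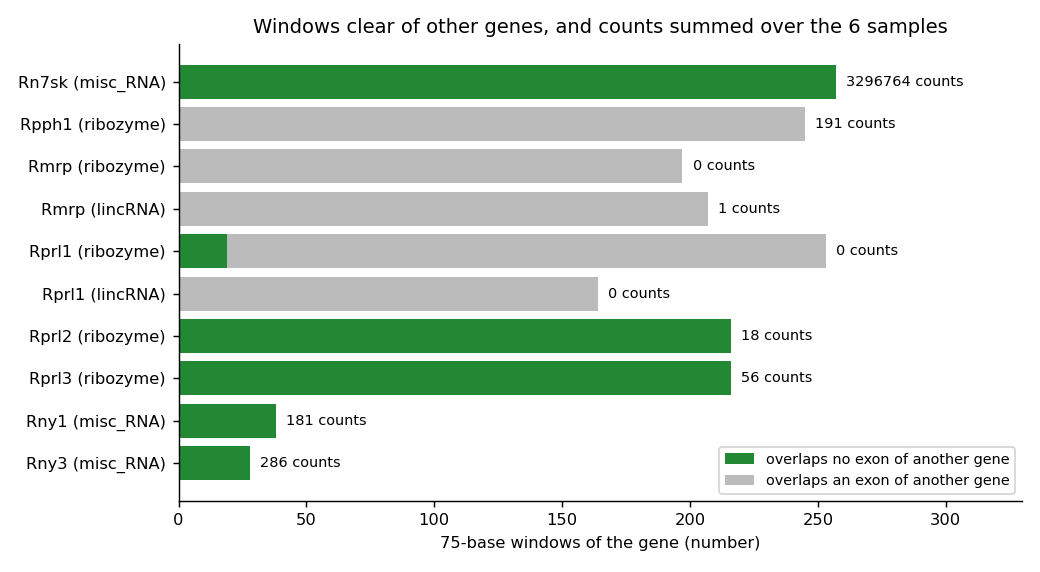
Number of 75-base windows of each of the 10 gene entries (horizontal axis), split into windows clear of the exons of other genes (green) and windows that overlap one (grey), with the counts summed over the 6 samples at the end of each bar. Both Rmrp entries, both Rprl1 entries and Rpph1 have few or no clear windows.

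Rmrp and Rprl1 had next to no counts. The lincRNA entry of Rmrp had a single count, in cKO replicate 2, and the ribozyme entry of Rmrp and both Rprl1 entries had 0 counts in all 6 samples. A count of 0 allows up to 3 counts, which is 0.0474 to 0.0626 CPM (counts scaled to a common total per sample) in these libraries. Such limits and the intervals below cover counting error only. Reads that overlap another gene appear not to have been counted, so the limit does not bound the level of these RNAs. No level and no difference was measurable for these 2 genes.

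Rn7sk held most of the counts of the group and fell by about a factor of 2 in cKO. Control samples, replicates 1 to 3 in order here and in all that follows, held 497672, 863866 and 885836 reads of it, and cKO samples 309835, 312010 and 427545. That is 0.88%, 1.36% and 1.44% of all counts in control and 0.646%, 0.527% and 0.766% in cKO. The level of every cKO sample lay below that of every control sample, with control replicate 1 nearest to the cKO samples. The mean level was 12290 ± 3047 CPM in the 3 control samples and 6465 ± 1191 CPM in the 3 cKO samples (± SD). The log2 fold change of cKO over control was -0.95 (SE 0.15), or 51.8% of the control level. At this depth the 95% interval of each share from counting error (exact Clopper-Pearson) is narrow, 0.878% to 0.883% in control replicate 1, and the spread between replicates sets the precision. Averaged over the 6 samples, Rn7sk ranked 4 of all 55536 genes by CPM and 1 by CPM per kilobase of exon.

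The 7SK reads were spread over more than Rn7sk, and the other entries moved with it. Of the 257 windows of Rn7sk, 167 (65.0%) also occur in at least 1 of 4 other annotated genes, Gm24146, Gm26035, Gm26315 and Gm24447. Together these held 139006, 245694 and 239376 counts (control) and 90007, 86381 and 115233 (cKO). Their sum was between 0.27 and 0.29 of the Rn7sk count in every sample, so the ratio differed little between the groups. The log2 fold changes of the 4 copies lay between -0.95 and -0.94. Reads of Rn7sk and these copies cannot be told apart in the shared windows, and Rn7sk summed with them gave -0.95 again.

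The Rpph1 entry had 22, 70 and 61 counts in control samples and 12, 7 and 19 in cKO samples. With 0 of its 245 windows clear, whole reads inside the gene may be absent from these counts. Which reads the counts hold was not tested. The highest cKO sample (0.34 CPM) lay just below the lowest control sample (0.389 CPM), and the other control samples were near 1 CPM. Their counting intervals overlapped, 0.205 to 0.531 CPM for cKO replicate 3 and 0.244 to 0.589 CPM for control replicate 1. The mean was 0.829 ± 0.385 CPM over controls and 0.236 ± 0.112 CPM over cKO samples (SD, n = 3 each), and the log2 fold change was -1.86 (SE 0.40).

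Among the copies of the RNase P RNA, Rprl3 was lower in cKO and Rprl2 was too sparse to tell. Rprl3 counts were 12, 21 and 13 across the control samples against 3, 3 and 4 across the cKO samples, and the groups did not overlap. The ratio of its summed counts, each relative to the total counts of its group, was 0.242 of control (95% counting interval 0.109 to 0.486), and the fitted log2 fold change was -2.03 (SE 0.43). The cKO libraries are at or next to the floor of 3 counts, so the size of this fold is loose. Rprl2 counts were 1, 2 and 5 across the control samples and 5, 2 and 3 across the cKO samples, a ratio of 1.39 with an interval from 0.494 to 4.05, and was not tested because its counts were too low.

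The Y RNA genes had few counts, and only Rny1 was apart between the groups. Rny1 counts were 28, 54 and 45 across the control samples and 20, 20 and 14 across the cKO samples, with means of 0.694 ± 0.182 CPM and 0.335 ± 0.0832 CPM (SD, n = 3 each). All cKO samples of Rny1 were below all control samples, and its log2 fold change was -1.09 (SE 0.28). The counting intervals of the nearest samples overlapped, 0.255 to 0.644 CPM for cKO replicate 1 and 0.329 to 0.716 CPM for control replicate 1. Rny3 counts were 36, 75 and 69 across the control samples and 27, 32 and 47 across the cKO samples, and here cKO replicate 3 lay above control replicate 1. Its means were 0.982 ± 0.300 CPM and 0.649 ± 0.168 CPM (SD, n = 3 each), with a log2 fold change of -0.63 (SE 0.25). The difference between the Y RNA genes was not tested. Per kilobase of exon, Rny3 had 9.62 CPM and Rny1 6.19 CPM in control, against 37131 CPM per kilobase for Rn7sk. A 75-base read fits in only 28 windows of Rny3 and 38 of Rny1, against 257 of Rn7sk. These values are therefore not read as relative amounts of RNA.

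**Figure D2:**
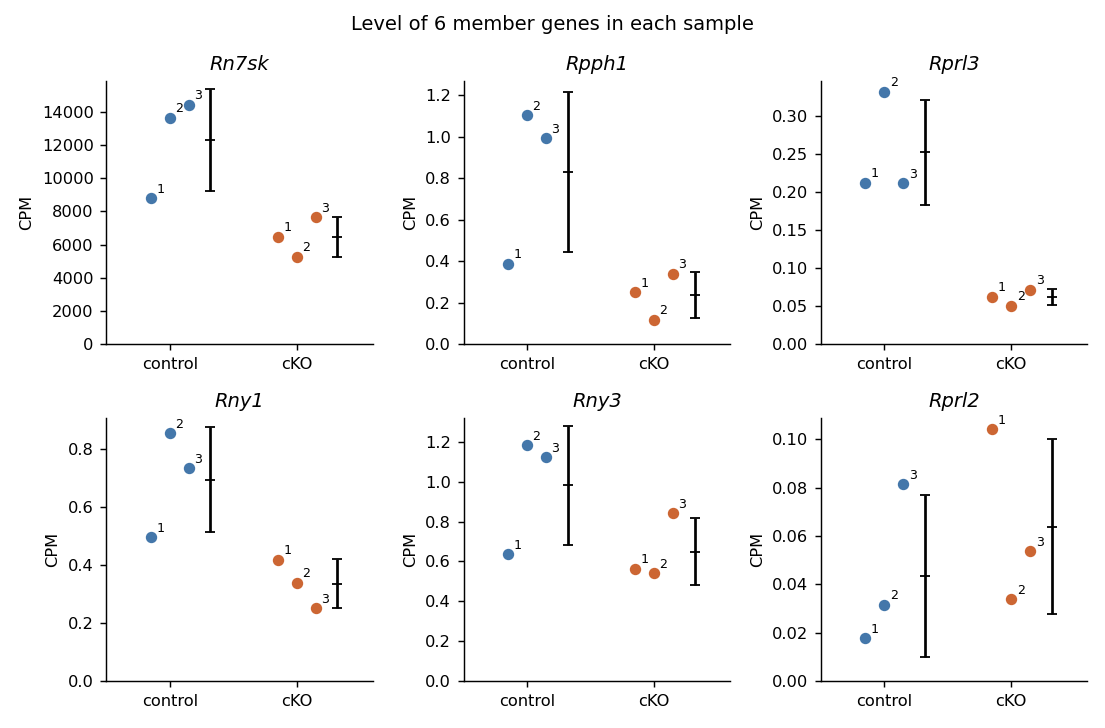
Level in CPM (vertical axis, from 0, a scale of its own per gene) of 6 genes in the 3 control (blue) and 3 cKO (orange) samples, numbered by replicate, with the mean and SD in black. Rn7sk, Rpph1, Rprl3 and Rny1 do not overlap between the groups, Rny3 and Rprl2 do.

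Of the 10 entries, 5 had enough counts to be fitted, and all 5 had a negative log2 fold change (median -1.09, against a median of 0.00 over all 22404 genes tested). By edgeR's quasi-likelihood test at a 0.05 threshold on adjusted p, 4 of the 5 were lower in cKO and 0 higher, where 6.46% of all genes tested were lower. The groups were apart, with cKO lower, for 4 of the 5, where this held for 11.1% of all genes tested. The filter on low counts had a part in this tally. Rprl3 reached its minimum count of 10 only in control samples, and Rprl2, with a ratio of 1.39, was left out. Nothing is read from the shared sign, the median or these counts, since the group was also selected on this comparison.

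The fall was not even over the samples. Control replicate 1 was the lowest control sample for 4 of these 5 genes, and for 33.8% of all genes tested. Rprl3 was the exception, where control replicates 1 and 3 were nearly equal. Without control replicate 1 the log2 fold change was -1.14 for Rn7sk (SE 0.10), -2.18 for Rpph1 (SE 0.31), -2.14 for Rprl3 (SE 0.48), -1.28 for Rny1 (SE 0.27) and -0.85 for Rny3 (SE 0.23). Each was larger than with all samples. Control replicate 1 lay below the control mean for all 5 genes, so larger values follow from leaving it out and are no separate check. Among the cKO samples, replicate 3 was the highest for 4 of the 5 genes, and for 26.5% of all genes tested.

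Other short RNAs are described beside the member genes. The lower counts of short RNAs in cKO were known here too, so nothing is read from how many of them passed. The signal recognition particle RNA genes Rn7s1, Rn7s2 and Rn7s6, also made by RNA polymerase III but with promoter elements inside the gene, had lower counts in cKO. Rn7s1 counts were 2417, 5009 and 4784 across the control samples and 2269, 1688 and 2709 across the cKO samples, so that the groups overlapped in control replicate 1. The log2 fold changes were -0.71, -0.73 and -0.75 (SE 0.20, 0.21 and 0.20). They are closely related copies, and how reads that match several of them were assigned is not stated in the sources used here. The call of all 3 was lost without control replicate 2 or 3 (log2 fold changes from -0.63 to -0.57), that of Rn7s1 and Rn7s2 also without cKO replicate 2 (-0.50 and -0.52), and DESeq2 called none of them.

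Bc1, a neuronal RNA polymerase III transcript and the highest of this list by CPM, had 4085, 6018 and 5475 counts (control) and 4611, 4076 and 5875 (cKO). The log2 difference was 0.05 (SE 0.12, adjusted p = 0.85), and the groups overlapped throughout. The vault RNA gene Vaultrc5 had 23, 12 and 18 counts against 13, 7 and 4, a log2 fold change of -1.0 (SE 0.44, adjusted p = 0.155). Of 5 such genes with enough counts, 3 were lower and 0 higher at an adjusted p under 0.05 in edgeR (median log2 fold change -0.73). Over all genes tested, 6.46% were lower and 9.38% higher. Of the 5, none was called lower with DESeq2, without control replicate 2 or without control replicate 3. The count was 1 without cKO replicate 2, 3 without control replicate 1 or cKO replicate 3, and 4 without cKO replicate 1. Over all genes, the number lower ranged from 917 to 1673 when a sample was left out, against 1448 with all samples.

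Short RNAs that RNA polymerase II makes were described for comparison. Of 11 tested, 1 was lower and 0 higher (median log2 fold change -0.28), where 6.46% of all genes tested were lower and 9.38% higher, and 10 of the 11 values were below 0. The U1 gene Rnu1a1, a spliceosome RNA and the highest of this list, had 507, 829 and 850 counts (control) against 403, 384 and 437 (cKO), with a log2 fold change of -0.69 (SE 0.13) and no overlap. The U1 genes Rnu1b1, Rnu1b2 and Rnu1b6 were not called, and their groups overlapped. Their log2 fold changes were -0.21, -0.24 and -0.06 (SE 0.14, 0.12 and 0.15). Leaving out each sample in turn gave 1 to 3 lower, with 3 without cKO replicate 3 and 2 without control replicate 1. The added gene without control replicate 1 was Terc, the RNA of telomerase, at -0.76 (SE 0.20). Whether the fall of RNA polymerase III RNAs was larger than that of RNA polymerase II short RNAs was not tested. Over the 16 other short RNAs tested, control replicate 1 was the lowest control sample for 13.

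**Figure D3:**
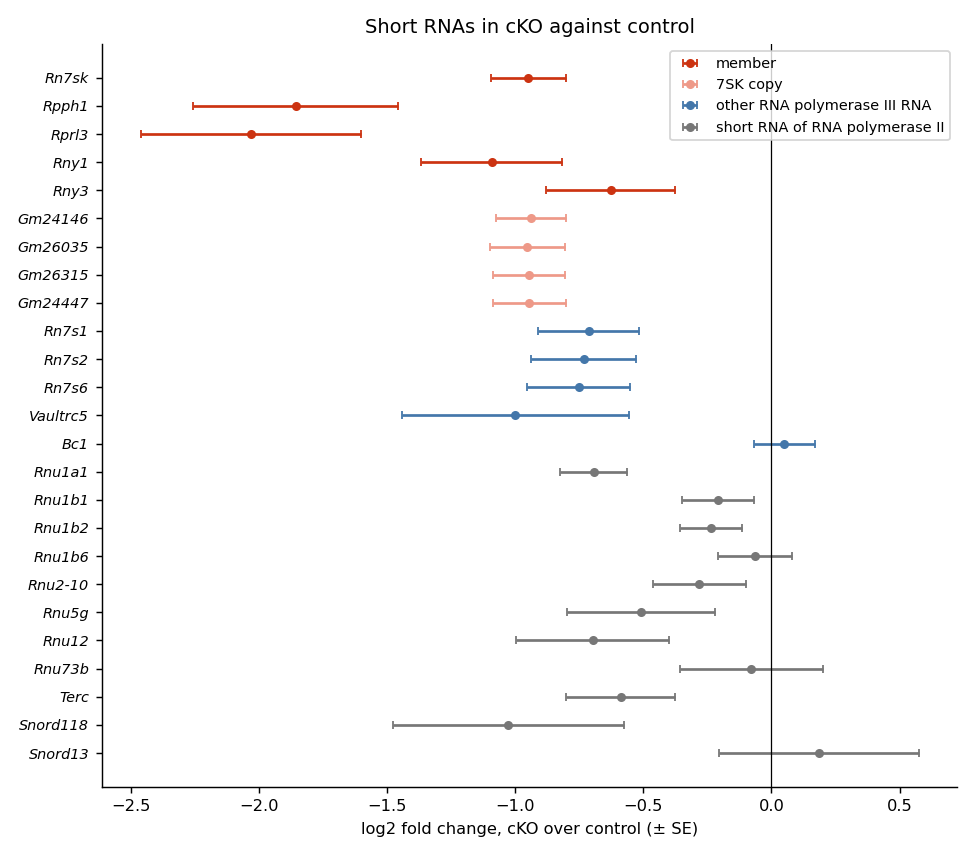
Log2 fold change of cKO over control (horizontal axis, bars are ± 1 SE) of the 5 fitted member genes, the 4 copies of 7SK, 5 other RNA polymerase III RNAs and 11 RNA polymerase II short RNAs. Most values lie left of 0, while Bc1 (0.05) and Snord13 (0.18) lie to its right.

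**Figure D4:**
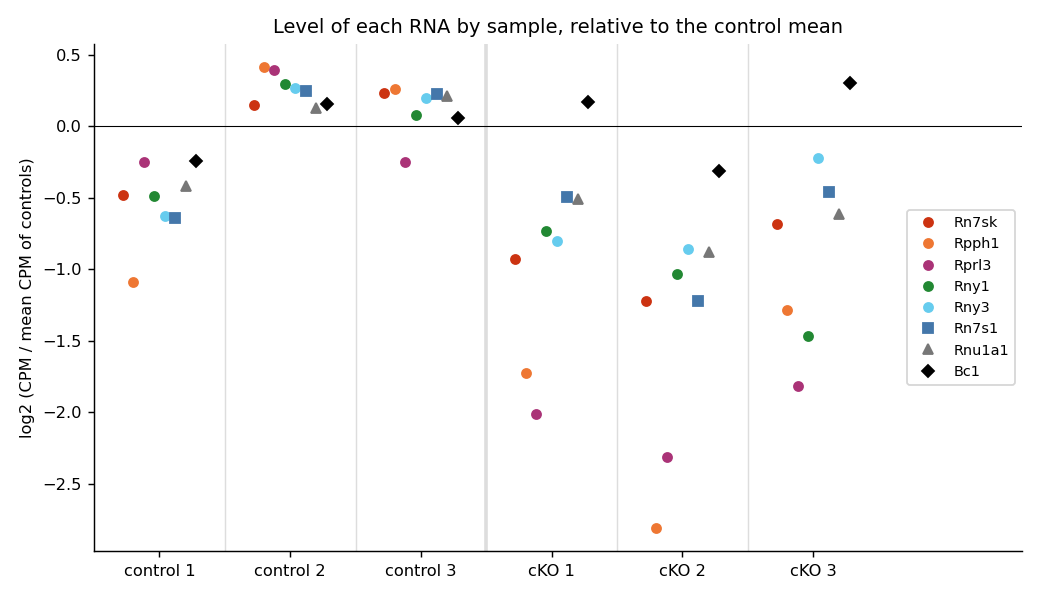
Level of 8 short RNAs in each sample as log2 of CPM over the mean CPM of the control samples (vertical axis), with a column per sample. In control replicate 1 all 8 RNAs lie below the control mean.

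The genes of the proteins that work with these RNAs had small differences between the groups. Of 59 tested genes in 7 lists, 3 were lower and 2 higher at an adjusted p under 0.05, that is 5.08% and 3.39%, where 6.46% of all genes tested were lower and 9.38% higher. Their median absolute log2 fold change was 0.04, against 0.10 over all genes tested. The sets were not matched for level, and genes with few counts scatter more, so these medians do not show that the partner genes are more stable. In 57 of the 59 it was under 0.25, the others being Igf2bp1, described below, and Rpp25 of RNase P, with 5 to 13 counts per sample and a log2 fold change of 0.38 (SE 0.39).

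For the 7SK complex, 0 of 7 genes passed edgeR's or DESeq2's test, and 2 had an unadjusted p under 0.05. With no filter on low counts edgeR called Cdk9 lower. Ccnt1, the cyclin T1 subunit of P-TEFb, stood at 103 CPM in control samples and 105 CPM in cKO samples, with a log2 fold change of 0.01 (SE 0.03). Hexim1, the inhibitor that binds through 7SK, was at 0.03 (SE 0.05), the kinase Cdk9 at -0.17 (SE 0.08, adjusted p = 0.152), and Larp7, which binds the 3′ end of 7SK, at -0.10 (SE 0.04, adjusted p = 0.138).

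Of the 11 protein subunits of RNase P and RNase MRP, 1 was called lower and 0 higher by edgeR, and 4 had an unadjusted p under 0.05. Over all genes tested, 6.46% were lower and 9.38% higher. Rpp38 counts were 940, 1049 and 1028 across the control samples and 723, 848 and 825 across the cKO samples, a log2 fold change of -0.20 (SE 0.05, adjusted p = 0.01). The subunits with the highest levels, Pop4 and Pop1, were at 0.08 (SE 0.04) and -0.09 (SE 0.04) and did not pass the test.

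Among 4 genes of proteins that bind Y RNAs or the 3′ end of RNA polymerase III transcripts, Trove2, which encodes Ro60, was at 0.01 (SE 0.03) and Ssb, which encodes La, at -0.04 (SE 0.03). Puf60 was at 0.05 (SE 0.03). Igf2bp1, an mRNA-binding protein reported to bind a Y RNA and best known from embryonic tissue, rose. Its counts went from 31, 57 and 40 (control) to 115, 132 and 144 (cKO), a log2 fold change of 1.74 (SE 0.17, adjusted p = 3.18e-06).

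No gene of the polymerase itself passed the test. Of 11 subunits found only in RNA polymerase III and 7 shared with other polymerases, 0 passed in edgeR or DESeq2 and 1 of each group had an unadjusted p under 0.05, with log2 fold changes from -0.06 to 0.11 and from -0.01 to 0.11. Polr3f and Polr3b, the highest of the first group, were at -0.02 (SE 0.04) and -0.06 (SE 0.04), and Polr1d and Polr2e, the highest of the second, at 0.02 (SE 0.04) and -0.01 (SE 0.04).

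Of 12 genes for TFIIIA, TFIIIB, TFIIIC and the repressor Maf1, edgeR called 1 lower and 0 higher, and 2 had an unadjusted p under 0.05. Gtf3c4 of TFIIIC fell by 0.13 on the log2 scale (SE 0.04, adjusted p = 0.0201). This call was lost without control replicate 2 (-0.13), control replicate 3 (-0.11) or cKO replicate 3 (-0.13). Gtf3c1 and Bdp1, with the highest levels, were at 0.02 (SE 0.03) and -0.08 (SE 0.03). The 7 genes for SNAPc and its activators, which act at promoters like those of Rn7sk and Rpph1, held a change in each direction. Pou2f1, which encodes Oct-1, went from 1855, 1912 and 1850 counts (control) to 1304, 1663 and 1584 (cKO), a log2 fold change of -0.18 (SE 0.04, adjusted p = 0.0122), which was not called without control replicate 1 (-0.14). Snapc4, the largest subunit of SNAPc, rose by 0.20 on the same scale (SE 0.05, adjusted p = 0.00692). Snapc3 and Zfp143, the highest of this list, were at -0.02 (SE 0.04) and -0.03 (SE 0.04).

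**Figure D5:**
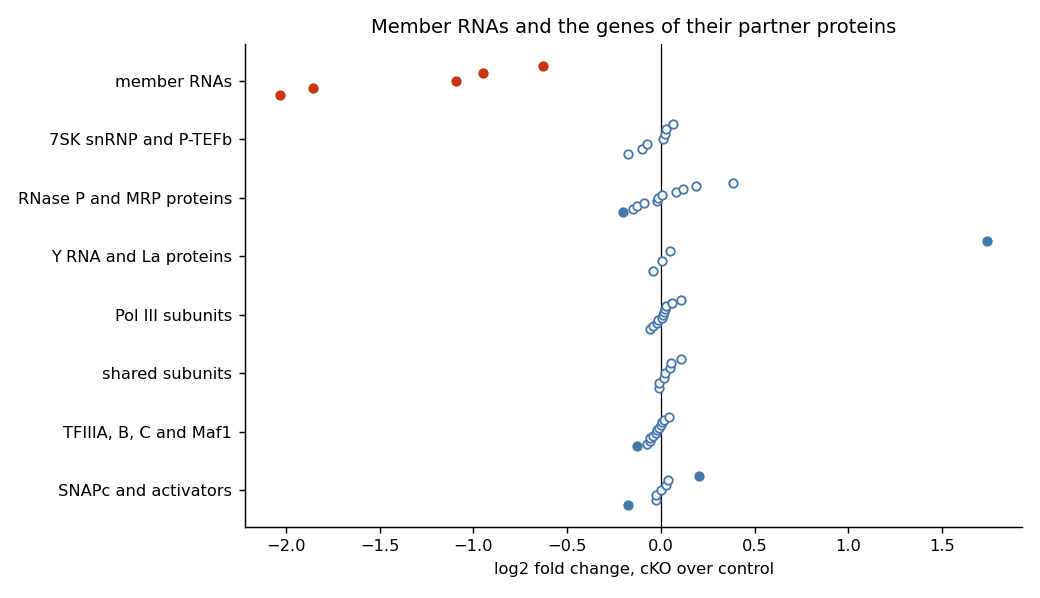
Log2 fold change of cKO over control (horizontal axis) of the 5 fitted member RNAs (red) and of 59 genes of partner proteins in 7 lists (blue), with filled blue points for an adjusted p under 0.05. The member RNAs lie from -2.03 to -0.63, and the partner genes lie between -0.20 and 0.20 apart from Rpp25 at 0.38 and Igf2bp1 at 1.74.

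Of the genes next to the member genes, 3 had enough counts, and 0 of them passed edgeR's or DESeq2's test (1 had an unadjusted p under 0.05). C920006O11Rik starts 281 bases from Rn7sk on the opposite strand and had a log2 fold change of 0.18 (SE 0.17, adjusted p = 0.563). Parp2, a DNA repair gene that starts 74 bases from Rpph1 in the opposite direction, was at -0.11 (SE 0.04, adjusted p = 0.0642), and Ccdc107, which overlaps Rmrp, at 0.05 (SE 0.06, adjusted p = 0.68). Ccnb1ip1, which shares exonic bases with Rpph1, had at most 1 count in any sample, Igkv12-67 near Rprl1 had 0 counts in all, and Rpl31-ps7 near Rny1 and Rny3 had at most 2.

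The genes whose log2 CPM was most like that of Rn7sk over the 6 samples, among 14615 tested genes with at least 100 counts in every sample, were Gm24447, Nuf2, Gm26315, Gm26035 and Immt, with Pearson correlations of 0.998, 0.998, 0.997, 0.997 and 0.996. For Rpph1 they were Gm26035, Gm9826, Gm26315, Gm24447 and Gm7211, from 0.994 to 0.992. The points are 6 samples in 2 groups, and the measure does not see the size of a change: Nuf2 and Immt had log2 fold changes of only -0.07 each. Rmrp had too few counts for this comparison.

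Markers of other cell types differed between the groups, although the sort had removed cells positive for CD45 or SCA1. All 12 macrophage and leukocyte markers were higher in cKO at an adjusted p under 0.05, and their summed level was 125 to 131 CPM in control and 267 to 313 CPM in cKO; the most abundant, Lyz2, had 80.4 and 186 CPM. Of the tested markers, 5 of 7 of fibroblasts and 4 of 8 of endothelial cells were higher, and no marker of these lists was at 0 in all samples. Among 7 tested satellite cell and myoblast markers, 6 were lower, and their summed level, mostly Des, was 4886 to 4996 CPM in control and 4365 to 4710 CPM in cKO. Over all genes tested, 9.38% were higher and 6.46% lower. In bulk RNA, fewer cells of a type and less RNA per cell cannot be told apart. Other cells in the samples and these genes being higher within satellite cells cannot be told apart here either, and the part of either in the lower counts of the member genes was not tested.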

How the data were processed

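RNA-seq counts of 3 control and 3 cKO samples were used. Per the labels and the paper's methods, the deposited counts are raw reads per gene that the authors obtained with featureCounts 1.6.3 after mapping to mm10 by Bowtie2 2.3.4.2; the strand setting and the treatment of reads that match several places are not given in the sources used here. A table of normalized counts and a DESeq2 2.11.40.6 comparison table (fold changes, p-values) were deposited too and not used. GENCODE M21 held each of the 55536 identifiers and gave symbols, coordinates, overlaps and transcripts.

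Genes were filtered by filterByExpr (minimum count 10), scaled by TMM and compared with edgeR 4.0.16 (quasi-likelihood test, genotype as the only term, R 4.3.3), with Benjamini-Hochberg adjustment over 22404 genes; the fit was tested on simulated data. CPM values are counts scaled to the sample total, without TMM. Totals were 47944477 to 63323577 counts per sample, and for genes with few counts the counting error sets the precision. No pair of replicates matched to within counting error. The chi-square of their counts over its degrees of freedom was 2.03 for control replicates 2 and 3, the closest pair. The other pairs within a group gave 5.20 to 9.39. Whether control replicates 2 and 3 shared a source was not tested. Member genes and lists were written from general knowledge, with earlier results of these data known. Named genes are the members, Hira, genes next to members, those with an adjusted p under 0.05 and the 2 with the highest mean CPM in each partner list (1 in other lists), and the 5 most correlated with a member. Cdk9, Larp7, Trove2, Vaultrc5, Terc, Rnu1b1, Rnu1b2, Rnu1b6, Rpp25, Snord13, Polr2l and Polr3d were named after their values were seen. Alternatives were DESeq2 1.42.0, edgeR's likelihood-ratio test, RLE or no scaling factors, other filters, short RNAs left out of the totals, a replicate block, leaving out each sample, and, chosen after seeing the data, Rn7sk summed with its copies and the same alternatives for the other short RNAs. Python 3.11.15 with Biopython 1.88 was used for sequences.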

Additional observations from a re-analysis of the deposited data

How the results depend on the processing

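No log2 fold change of the 5 fitted member genes changed sign under any alternative run. Leaving out each sample in turn gave -1.14 to -0.82 for Rn7sk, -2.25 to -1.51 for Rpph1, -2.16 to -1.78 for Rprl3, -1.28 to -0.92 for Rny1 and -0.87 to -0.47 for Rny3, with 3 to 5 members lower at an adjusted p under 0.05 (4 with all samples). Rny1 no longer passed without control replicate 2 (-0.92), control replicate 3 (-1.05) or cKO replicate 3 (-0.93), and Rny3 passed without control replicate 1 (-0.85) and with no filter on low counts (-0.63). DESeq2 gave no adjusted p for Rprl3 and called 3 members. The members were selected on this comparison, so these calls say nothing of how firm it is. Of the partner genes, 2 to 3 were lower and 2 to 3 higher when a sample was left out; with total counts alone 2 were lower and 4 higher, among them Polr2l and Polr3d, and Gtf3c4 was not called, and with no filter on low counts 4 were lower, Cdk9 added; of the 5 called with all samples, Rpp38, Igf2bp1 and Snapc4 were called under every alternative run. Over all genes tested, same-numbered samples did not deviate together (correlations of -0.01, 0.00 and -0.01). Differently numbered pairs gave -0.01 to 0.02. Such small values over all genes cannot tell whether samples were paired. With the replicate block 4 members were lower, 3 partner genes lower and 2 higher, as without it. Depth limits Rprl2, Rprl3 and the Y RNA genes, and overlapping annotation limits Rpph1, Rmrp and Rprl1.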
